A study of Mus musculus with 27 samples.

Results

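The 9 genes described here handle iron in macrophages, and they were taken as a list of symbols matched to the Ensembl identifiers of a count table of 38124 genes. They are Tfrc and Slc11a1, which move iron into the cytosol, Fth1 and Ftl1, which store it, Slc40a1 and Cp, which send it out, Hmox1, which frees it from haem, Lcn2, which binds bacterial iron carriers, and Hfe, which takes part in iron sensing. All 9 matched 1 identifier each, and all 9 passed the filter on low counts that left 13599 genes for testing. The cells were alveolar macrophages of C57B/6 mice aged 8 to 14 weeks, washed out of the lung by lavage and sorted. Recruited macrophages (CD11c-CD11b+) were taken 3, 6, 9 and 12 days after 20 ng of lipopolysaccharide (LPS, a bacterial cell wall component) in 50 µL of saline had been put into the trachea. Resident macrophages (CD11c+CD11b-) were taken on the same days, and also from untreated mice, called day 0. There were 3 libraries in each of the 9 groups, and no recruited group exists for day 0. No label ties the 3 libraries of a group to separate mice, and the p-values measure the spread between these libraries, which may be technical in part.

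Macrophages take up iron bound to transferrin through the transferrin receptor (Tfrc) and recover it from haem with haem oxygenase (Hmox1). Iron that is not used is stored in shells made of ferritin heavy (Fth1) and light (Ftl1) chains, or leaves through ferroportin (Slc40a1), the only known iron exporter of mammalian cells. Iron regulatory proteins match these flows to supply by binding hairpins in the mRNA, the iron responsive elements: in a 5′ UTR they block translation, and in a 3′ UTR they protect the mRNA from decay. During infection macrophages are known to hold iron back from microbes, with low ferroportin and high ferritin and lipocalin (Lcn2).

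A search of the annotated UTRs for the canonical hairpin, a bulged C and a CAGTGN loop closed by 5 paired bases, found it in 4 of the 9 genes and in 155 of 21899 genes overall (0.708%). The 7 sites are shown because the place of an element decides what it can act on. By the known mechanism, an element in the 3′ UTR can act on the mRNA level and one in the 5′ UTR on translation. Neither protein binding nor mRNA decay was measured here, so no level below is read as a result of that control. The loop is in capitals, each sequence runs 5′ to 3′ on the mRNA strand, and positions are in GRCm38 with GENCODE M21 transcripts. In the 5′ UTR, the element of Fth1 lies at chr19:9982732-9982761 on the plus strand, that of Ftl1 at chr7:45459778-45459807 on the minus strand and that of Slc40a1 at chr1:45925464-45925493 on the minus strand. In the 3′ UTR of Tfrc, 4 elements lie on the plus strand, at chr16:32631219-32631248, chr16:32631598-32631627, chr16:32631663-32631692 and chr16:32631710-32631739.
Fth1: ttcctgcttcaaCAGTGCttgaacggaacc
Ftl1: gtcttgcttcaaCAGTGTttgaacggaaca
Slc40a1: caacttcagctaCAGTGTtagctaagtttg
Tfrc, site 1: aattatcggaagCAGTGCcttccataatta
Tfrc, site 2: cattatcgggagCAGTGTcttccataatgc
Tfrc, site 3: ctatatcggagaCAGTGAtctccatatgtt
Tfrc, site 4: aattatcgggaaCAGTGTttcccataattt
No such hairpin was found in the annotated UTRs of Slc11a1, Hmox1, Lcn2, Hfe or Cp. That says only that these letters are absent there.

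Levels below are CPM, a gene's counts relative to the scaled (TMM) total of its library, with that total set to 1e+06, and differences are log2 ratios with their standard error (SE). Each was tested with edgeR's quasi-likelihood test, and a gene was called where the p-value adjusted over all 13599 genes was under 0.05. Library totals ran from 11093216 to 18299674 counts. The summed CPM of 12 markers of resident alveolar macrophages was 2283 to 10554 in recruited libraries and 16414 to 34151 in resident ones. That of 10 monocyte and monocyte-derived markers was 5966 to 25482 in recruited libraries and 48.9 to 695 in resident ones, so both labels matched their markers. The resident sum was 8395 CPM in recruited replicate 3 of day 9, and 10554 and 9987 CPM in replicates 2 and 3 of day 12. The other recruited libraries had 2283 to 3972 CPM. The part of resident cells in the recruited levels of days 9 and 12 was not tested. Some libraries stood apart from their group, and results that rest on them are given with and without them. In untreated resident cells, replicate 1 had the highest level of 7 of the 9 iron genes. Among recruited cells, replicate 2 of day 9 and replicate 1 of day 12 had monocyte marker sums of 25482 and 23234 CPM. The other recruited libraries of those days had 5966 to 10870.0 CPM. General macrophage markers summed to 52965 and 58024 CPM in the same libraries, against 23598 to 31639 CPM. The resident libraries of equal day and number were high as well. Their general sums were 42628 and 43734 CPM, against 25619 to 28466 CPM in the other resident libraries of those days. Their monocyte sums were 240 and 288 CPM, against 96.2 to 131 CPM. These recruited and resident libraries share a run of library numbers in the column headers. Of their reads assigned, ambiguous or outside genes, 6.77 to 7.06% lay outside genes, against 8.08% or more in every other library. Replicate 3 of day 9 held RNA of red cell genes in both populations (195 CPM in recruited and 144 CPM in resident cells, against 0 to 8.02 CPM in the other 25 libraries).

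**Figure D1:**
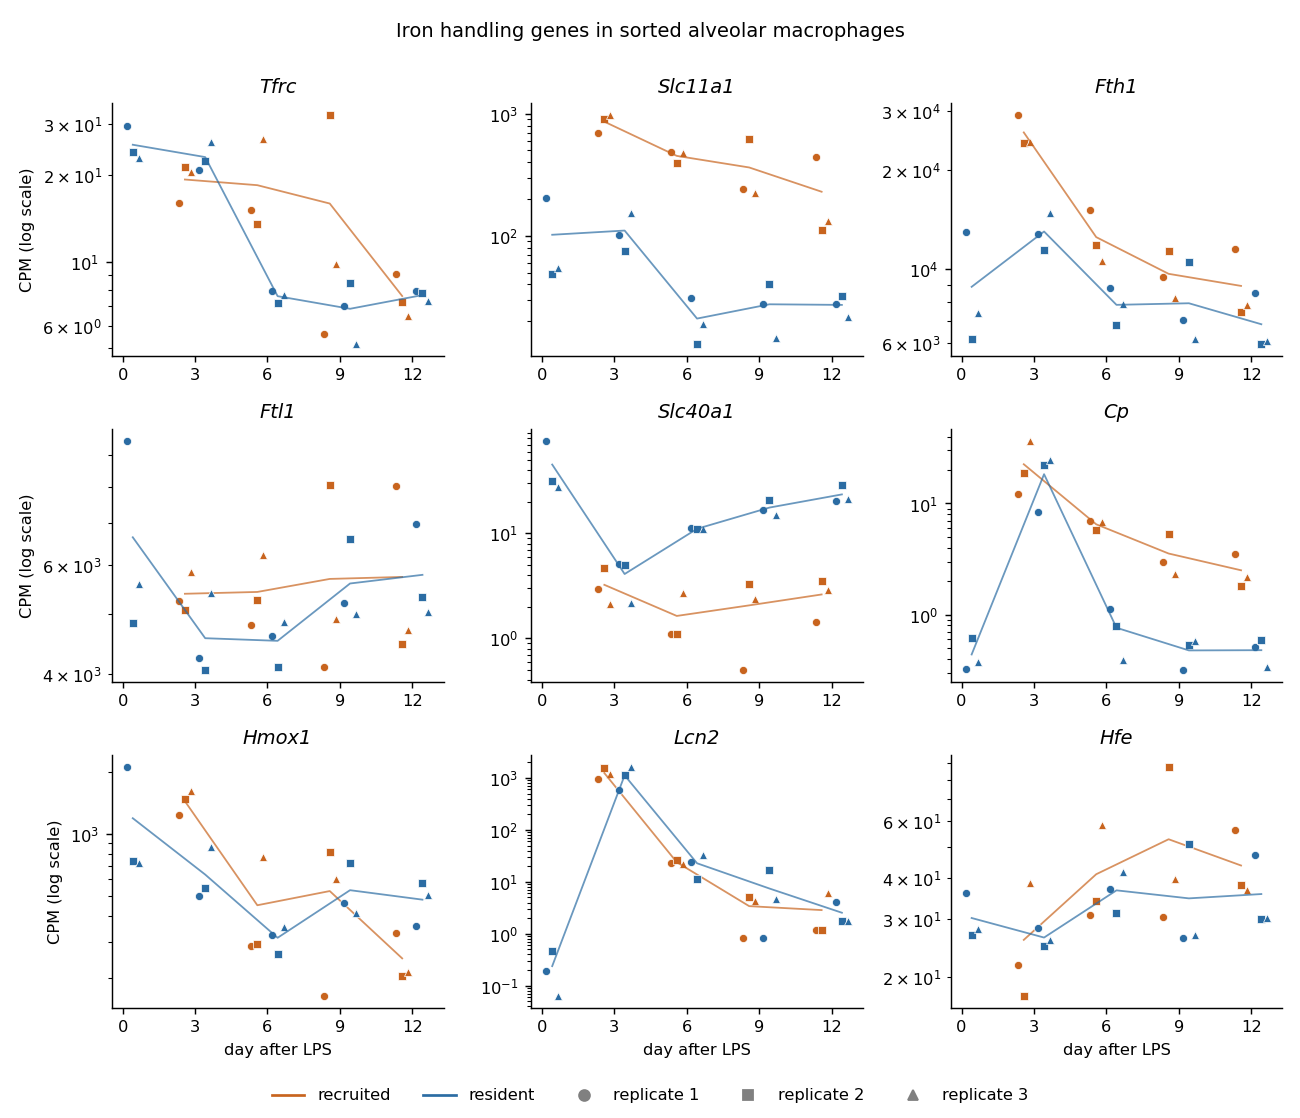
Level of each iron handling gene in every library, in CPM on a log scale (the axes differ between genes), against the day after LPS; recruited libraries (orange) are drawn left of resident ones (blue), symbols mark the replicate and lines join group means. Slc11a1 is higher in all recruited libraries of a day than in all resident ones, Slc40a1 is lowest in resident libraries on day 3, and Lcn2 peaks on day 3 in both populations.

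Averaged over days 3, 6, 9 and 12, recruited cells had more Slc11a1 (11.7-fold), Cp (4.46-fold), Fth1 (0.59 on the log2 scale) and Tfrc (1.47-fold) mRNA and less Slc40a1 (0.198-fold) mRNA than resident cells. Without recruited replicate 2 of day 9 the Tfrc difference was 0.29 on the log2 scale (adjusted p = 0.0411), against 0.55 with it. In sorted bulk samples, fewer cells that express a gene and less mRNA per cell cannot be told apart. These 5 called genes of 9 stand beside 60.3% of all tested genes called in the same comparison, so the share was near the background. For the other 4 genes the difference did not pass the test: 0.13, adjusted p = 0.403 for Ftl1, 0.26, adjusted p = 0.232 for Hfe, 0.19, adjusted p = 0.536 for Hmox1 and -0.18, adjusted p = 0.701 for Lcn2. By day, 2 of 9 genes were called on day 3 (46.6% of all genes), 5 on day 6 (35% of all genes), 4 on day 9 (32% of all genes) and 3 on day 12 (27.3% of all genes).

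**Figure D2:**
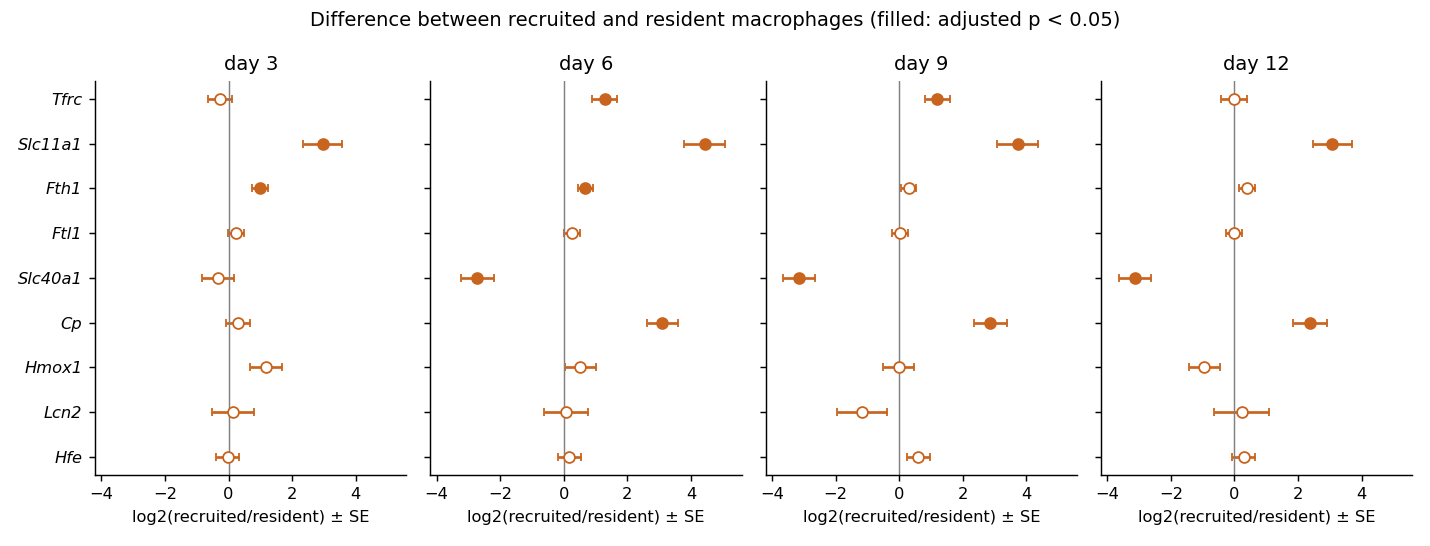
Log2 ratio of recruited to resident macrophages with its standard error for each gene (rows) on each day (panels); filled points have an adjusted p under 0.05. Slc11a1 is called on all 4 days, Cp and Slc40a1 on days 6, 9 and 12, Tfrc on days 6 and 9, and Fth1 on days 3 and 6.

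Within resident cells, fewer of all genes were called against day 0 on each later day. Of the 9 genes, 3 were called on day 3 (23.8% of all genes), 5 on day 6 (6.42% of all genes), 2 on day 9 (3.49% of all genes) and 1 on day 12 (1.3% of all genes). Without replicate 1 of day 0 the counts were 4, 2, 0 and 0 (20.5%, 3.24%, 1.2% and 0.777% of all genes). With blocks for the replicate number the day 3 count was 5. The blocks pair libraries within a day and give day 0 none. They take the spread shared by a pair out of the error, which can make p too small for a change between days. Within recruited cells, whose baseline is day 3, 4 genes were called on day 6 (31.9% of all genes), 5 on day 9 (36.3% of all genes) and 6 on day 12 (39.3% of all genes), and all but 1 of these calls were falls. The 4 resident comparisons share the untreated libraries and the 3 recruited ones share the day 3 libraries, so their calls are not independent of each other.

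**Figure D3:**
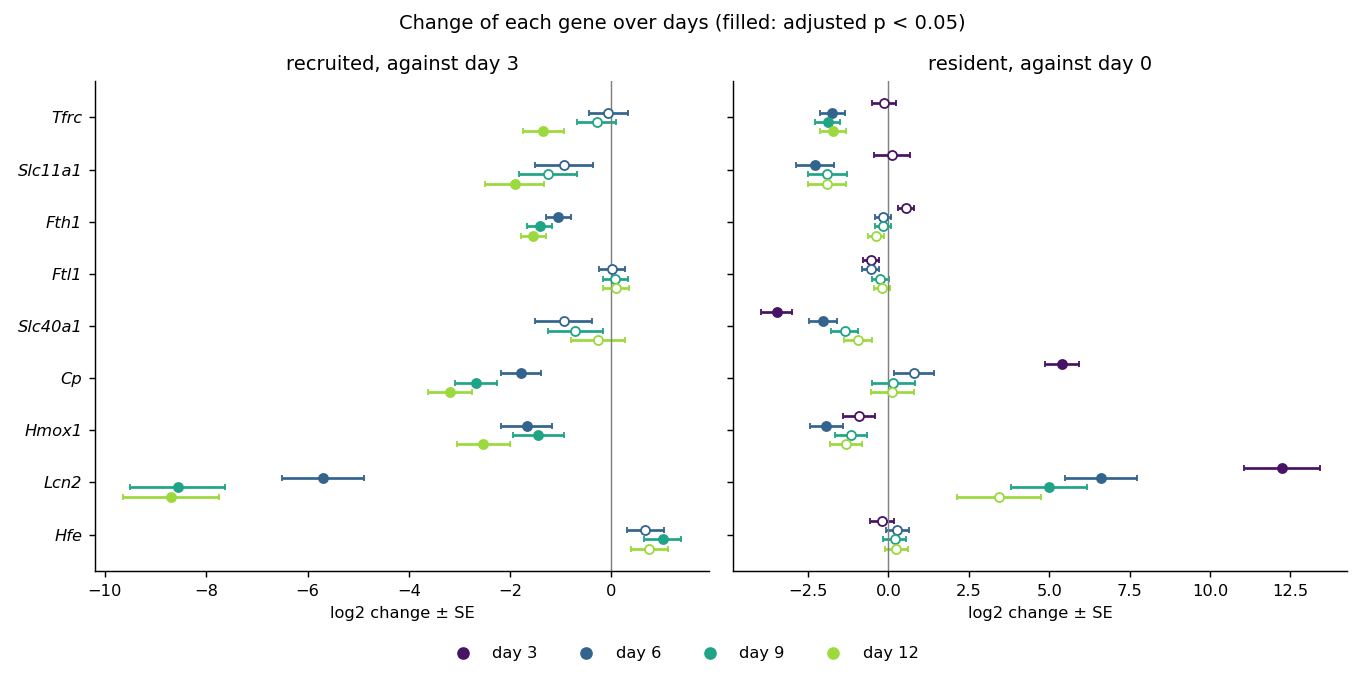
Log2 change of each gene with its standard error, in recruited cells against their day 3 (left) and in resident cells against untreated cells (right); filled points have an adjusted p under 0.05. In recruited cells Lcn2, Cp, Hmox1 and Fth1 lie below 0 on each later day, while in resident cells Lcn2 and Cp stand far above 0 on day 3.

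Among the genes of iron entry, Slc11a1 (ENSMUSG00000026177, chr1:74375195-74386062) separated the populations on each day. It encodes Nramp1, which moves iron and manganese across the membrane of phagosomes. C57BL/6 mice, as is known for the strain, carry an allele whose protein does not work. On day 3, Slc11a1 had 698, 906 and 979 CPM in recruited libraries, against 101, 75.6 and 154 CPM in resident ones. On day 6 it had 483, 394 and 478 CPM in recruited libraries, against 31, 12.9 and 19 CPM in resident ones. The lowest recruited library was above the highest resident library on both days. On day 9 it had 243, 621 and 224 CPM in recruited libraries, against 27.8, 40 and 14.6 CPM in resident ones. On day 12 it had 446, 111 and 132 CPM in recruited libraries, against 27.8, 32 and 21.6 CPM in resident ones. Again no library of the populations overlapped. The log2 difference was 2.96 ± 0.61 (SE), adjusted p = 0.000477 on day 3. It was 4.43 ± 0.66 (SE), adjusted p = 2.32e-05 on day 6. It was 3.73 ± 0.63 (SE), adjusted p = 0.00012 on day 9 (3.09 without recruited replicate 2) and 3.08 ± 0.62 (SE), adjusted p = 0.000863 on day 12 (2.18, adjusted p = 0.00847, without recruited replicate 1). The high libraries of recruited days 9 and 12 are the 2 with the high monocyte and general macrophage marker sums. They share a run of library numbers. The part of those cells in the level was not tested and not told apart from that run.

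Slc11a1 also fell over time in both populations, but these calls rested on few libraries. In recruited cells it was lower on day 12 than on day 3 (-1.91 ± 0.58 (SE), adjusted p = 0.0134). Without replicate 1 of day 12 the change was -2.80 (adjusted p = 0.00158), and without replicate 2 or 3 of that day the adjusted p was 0.0682 and 0.0654. In resident cells it had 31, 12.9 and 19 CPM on day 6 and 203, 48.4 and 54.7 CPM on day 0 (-2.28 ± 0.60 (SE), adjusted p = 0.0272). Replicate 1 of day 0 was far above the other 2, and without it the change was -1.30 (adjusted p = 0.256). Without replicate 2 or 3 of day 6 the call was lost as well (adjusted p = 0.128 and 0.101).

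Tfrc (ENSMUSG00000022797, chr16:32608920-32632794) was higher in recruited than in resident cells on days 6 and 9. It is the receptor for transferrin, the main carrier of iron in plasma. Resident libraries had 29.4, 24 and 22.8 CPM on day 0 and 20.8, 22.3 and 25.9 CPM on day 3, which overlapped. On day 6 Tfrc had 15.1, 13.5 and 26.6 CPM in recruited libraries, against 7.93, 7.17 and 7.67 CPM in resident ones. Every recruited library was then above every resident one, and every resident library was below each resident library of days 0 and 3. The recruited level was higher on day 6 (1.28 ± 0.40 (SE), adjusted p = 0.0157), but not without recruited replicate 3 (0.91, adjusted p = 0.107) or resident replicate 2 (adjusted p = 0.0526). On day 9 it had 5.62, 32.2 and 9.8 CPM in recruited libraries, against 6.99, 8.42 and 5.17 CPM in resident ones. Those groups overlapped, and the difference (1.20 ± 0.40 (SE), adjusted p = 0.0254) rested on recruited replicate 2, without which it was 0.15 (adjusted p = 0.706); it was also lost without resident replicate 1 (adjusted p = 0.0623) or 3 (adjusted p = 0.111). Recruited replicate 2 of day 9 was also the library with the highest monocyte marker sum. The part of those cells in the Tfrc level was not tested and not told apart from its run of library numbers. On day 3 the difference did not pass the test (-0.26, adjusted p = 0.604).

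In resident cells the fall of Tfrc against day 0 was -1.74 ± 0.40 (SE), adjusted p = 0.0101 on day 6, which held without any single library. It was -1.89 ± 0.40 (SE), adjusted p = 0.0104 on day 9, lost without replicate 1 of day 0 (adjusted p = 0.0547) or replicate 3 of day 9 (adjusted p = 0.0666). On day 12 it was -1.73 ± 0.40 (SE), adjusted p = 0.0287, and leaving out any 1 of the 6 libraries gave an adjusted p of 0.0638 to 0.131. Recruited libraries had 9.06, 7.26 and 6.47 CPM on day 12, against 15.9, 21.4 and 20.5 CPM on day 3, with no overlap. That fall was -1.35 ± 0.40 (SE), adjusted p = 0.0107. On day 9 the change against day 3 was not called (-0.29, adjusted p = 0.595), but without replicate 2 of day 9 it was -1.31 (adjusted p = 0.000591). Resident libraries of day 12 had 7.89, 7.79 and 7.27 CPM and overlapped the recruited ones.

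Among the genes of iron storage, Fth1 (ENSMUSG00000024661, chr19:9980598-9985098), the chain that oxidises iron for storage, was the most abundant of the 9 mRNAs per length. On day 3 it had 29287, 24169 and 24309.5 CPM in recruited libraries, against 12779, 11475 and 14800.4 CPM in resident ones. On day 6 it had 15118, 11848 and 10595 CPM in recruited libraries, against 8768, 6809 and 7878 CPM in resident ones. The populations were apart on both days. Fth1 was higher in recruited cells on day 3 (0.99 ± 0.25 (SE), adjusted p = 0.0023) and on day 6 (0.68 ± 0.25 (SE), adjusted p = 0.0372), where the call was lost without any 1 of recruited replicate 1 or 2 or resident replicate 2 or 3 (adjusted p = 0.0566 to 0.162). On day 9 it had 9499.8, 11376 and 8225 CPM in recruited libraries, against 7027, 10519.7 and 6169.9 CPM in resident ones. On day 12 it had 11524, 7417 and 7815 CPM in recruited libraries, against 8483, 5942 and 6072 CPM in resident ones. The populations overlapped on both of these days, while in each of the 6 pairs of equal day and number the recruited library was the higher. Neither difference was called (0.30, adjusted p = 0.398 on day 9 and 0.38, adjusted p = 0.279 on day 12), nor was it with blocks for the replicate number.

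In recruited cells Fth1 was lower than on day 3 on day 6 (-1.05 ± 0.25 (SE), adjusted p = 0.00254), day 9 (-1.42 ± 0.25 (SE), adjusted p = 0.000121) and day 12 (-1.54 ± 0.25 (SE), adjusted p = 4.14e-05). All recruited libraries of the later days lay below all of day 3. In resident cells, day 3 (the values above) and day 0 (13015, 6186 and 7387 CPM) overlapped only through replicate 1 of day 0. The change of 0.55 ± 0.25 (SE), adjusted p = 0.111 was not called. Without replicate 1 of day 0 the change was 0.94 (adjusted p = 0.00872). With blocks for the replicate number its adjusted p was 0.0482, but the blocks leave day 0 out, so that p can be too small.

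Ftl1 (ENSMUSG00000050708, chr7:45457944-45459884), the chain that helps form the iron core, was called in no comparison. Group means ran from 4519 CPM (resident day 6) to 6638 CPM (resident day 0), and in recruited cells the level was 5729 ± 1989 CPM on day 12 and 5382 ± 408 CPM on day 3 (SD, n = 3 each; log2 change 0.09 ± 0.26 (SE), adjusted p = 0.81). With blocks for the replicate number, its resident change from day 0 to day 3 was -0.55 (adjusted p = 0.0412). The blocks leave day 0 out, so that p can be too small. Without the block that change was -0.54, adjusted p = 0.131, and it was -0.19 (adjusted p = 0.641) without replicate 1 of day 0. Ftl1 overlaps a gene on the opposite strand and a microRNA gene, and its annotated copies held 18134 counts, 0.836% of its own, so some of its reads may be shared; the counts of the Fth1 copies were 0.00333% of its own.

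Per kilobase of transcript, the Fth1 to Ftl1 ratio was 5.04 ± 0.75 in recruited and 2.98 ± 0.14 in resident cells on day 3, and 1.38 ± 0.05 in untreated resident cells (SD, n = 3 each). On day 6 it was 2.47 ± 0.76 in recruited and 1.80 ± 0.16 in resident cells, and on day 9 it was 1.88 ± 0.49 in recruited and 1.45 ± 0.19 in resident cells. The populations overlapped on days 6 and 9, and replicate 2 of day 9 had 1.47 in recruited and 1.66 in resident cells. On day 12 it was 1.65 ± 0.14 in recruited and 1.23 ± 0.06 in resident cells, without overlap. The 3 day 0 libraries agreed in the ratio (1.34 to 1.43), although replicate 1 had the highest level of each chain. Both chains together made up 2.93 ± 0.32% of the counts in recruited cells of day 3, against 1.79 ± 0.23% in resident cells of that day. Ratios between genes of 1 library carry no test here.

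**Figure D4:**
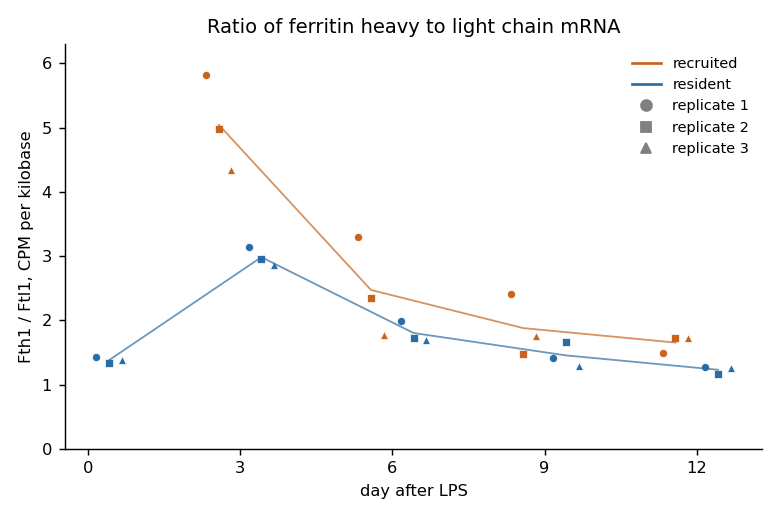
Ratio of Fth1 to Ftl1 in each library, both as CPM per kilobase of transcript, against the day after LPS; recruited libraries (orange) are drawn left of resident ones (blue), symbols mark the replicate and lines join group means. The 3 recruited libraries of day 3 lie between 4.34 and 5.82, above the resident ones of that day (2.86 to 3.14), and all are above the untreated libraries.

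Among the genes of iron export, Slc40a1 (ENSMUSG00000025993, chr1:45908068-45926523), ferroportin, was lower in recruited than in resident cells on days 6, 9 and 12, and lower in resident cells on days 3 and 6 than on day 0. Untreated resident libraries had 76, 31.7 and 27.8 CPM. On day 3 Slc40a1 had 2.97, 4.63 and 2.11 CPM in recruited libraries, against 5.12, 5 and 2.19 CPM in resident ones. The populations overlapped, and both were below every untreated library. The difference on that day did not pass the test (-0.33, adjusted p = 0.621). Resident libraries had 11.2, 11 and 11 CPM on day 6, 16.8, 20.9 and 15.1 CPM on day 9 and 20.2, 29.1 and 21.1 CPM on day 12. Recruited libraries had 1.1, 1.11 and 2.7 CPM on day 6, 0.498, 3.3 and 2.39 CPM on day 9 and 1.44, 3.56 and 2.87 CPM on day 12. The recruited levels rest on few reads, with 66, 86 and 114 counts per group on days 6, 9 and 12. Replicate 1 of recruited day 9 had 10 counts. On each of these days all recruited libraries were below all resident ones, and every resident library was above those of day 3; later resident days were not tested against day 3.

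Against resident cells, Slc40a1 was lower in recruited cells on day 6 (-2.72 ± 0.53 (SE), adjusted p = 0.000344; -3.31 without recruited replicate 3), on day 9 (-3.16 ± 0.51 (SE), adjusted p = 5.63e-05) and on day 12 (-3.13 ± 0.50 (SE), adjusted p = 7.33e-05). The test of the change itself was also called: the difference on day 12 minus that on day 3 was -2.80 ± 0.71 (SE), adjusted p = 0.0116. In that comparison 3 of the 9 genes were called (13.6% of all genes), and over all 4 days the change of the difference was called for 2 of the 9 genes (10.7% of all genes), Slc40a1 (adjusted p = 0.0263) and Cp (adjusted p = 0.00785). In resident cells the fall against day 0 was -3.47 ± 0.48 (SE), adjusted p = 3.02e-05 on day 3 and -2.03 ± 0.44 (SE), adjusted p = 0.00754 on day 6. Without replicate 1 of day 0 these were -2.87 (adjusted p = 0.000175) and -1.43 (adjusted p = 0.0759), so the day 3 fall held and the day 6 call did not.

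Cp (ENSMUSG00000003617, chr3:19957054-20009145), ceruloplasmin, is a copper enzyme that oxidises iron as it leaves through ferroportin. On day 3 it had 12.2, 18.8 and 36.7 CPM in recruited libraries, against 8.33, 22 and 24.7 CPM in resident ones, with overlap (0.30, adjusted p = 0.542). Untreated libraries had 0.321, 0.613 and 0.377 CPM, far below every library of day 3. On day 6 it had 6.88, 5.75 and 6.85 CPM in recruited libraries, against 1.11, 0.782 and 0.387 CPM in resident ones, and on day 12 3.5, 1.81 and 2.2 CPM in recruited libraries, against 0.509, 0.588 and 0.336 CPM in resident ones. On day 9 it had 2.99, 5.32 and 2.32 CPM in recruited libraries, against 0.315, 0.53 and 0.58 CPM in resident ones. From day 6 on, no recruited library overlapped a resident one. The resident levels rest on few reads: 34, 23 and 22 counts per group on days 6, 9 and 12, and 19 on day 0. Cp was higher in recruited cells on day 6 (3.09 ± 0.48 (SE), adjusted p = 2.45e-05), day 9 (2.86 ± 0.52 (SE), adjusted p = 0.000159) and day 12 (2.37 ± 0.54 (SE), adjusted p = 0.00205).

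In resident cells Cp was higher on day 3 than on day 0 (5.39 ± 0.52 (SE), adjusted p = 1.17e-07) and was not called later. In recruited cells it was lower than on day 3 on each later day (-3.19 ± 0.43 (SE), adjusted p = 3.42e-06 on day 12). The difference between the populations was larger on day 12 than on day 3 (2.08 ± 0.66 (SE), adjusted p = 0.04), a call that was lost without any 1 of 9 of the 12 libraries (adjusted p = 0.0574 to 0.115). Hps3 overlaps Cp on the opposite strand, and the sources used here do not give the strand setting of the counting. Heph, the membrane-bound relative of Cp, had 3.92, 1.15 and 1.01 CPM on day 0 and no count in any library of day 3, recruited or resident.

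Hmox1 (ENSMUSG00000005413, chr8:75093621-75100589) makes the enzyme that opens haem and frees its iron. On day 3 it had 1234, 1469 and 1609 CPM in recruited libraries, against 497, 543 and 862 CPM in resident ones, and untreated libraries had 2112, 734 and 721 CPM. The recruited libraries of day 3 were above the resident ones, and replicate 1 of the untreated cells was the highest of all 27 libraries. That population difference was not called at day 3 (adjusted p = 0.0586). On day 12 it had 329, 204 and 214 CPM in recruited libraries, against 359, 576 and 503 CPM in resident ones, with the recruited ones below the resident ones and no call (adjusted p = 0.174). Fitted on the compared groups alone, the test called both days (adjusted p = 0.00245 on day 3 and 0.0345 on day 12). The difference on day 12 minus that on day 3 was -2.13 ± 0.70 (SE), adjusted p = 0.0499, just under the threshold; with blocks for the replicate number the adjusted p was 0.0518, and leaving out any 1 of the 12 libraries gave 0.0512 to 0.113.

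Over time, Hmox1 in recruited cells was lower on day 12 than on day 3 (-2.53 ± 0.52 (SE), adjusted p = 0.000616), which held without any single library. Its falls on day 6 (-1.67 ± 0.50 (SE), adjusted p = 0.0152; -2.31 without replicate 3 of day 6) and day 9 (-1.45 ± 0.50 (SE), adjusted p = 0.0294) did not hold without some of the libraries (adjusted p = 0.0573 to 0.114 over the 6 that end a call). On day 9 recruited libraries had 163, 819 and 601 CPM, and the library with red cell RNA was replicate 3, whose level lay between the others. In resident cells the level was 323, 262 and 354 CPM on day 6, below every untreated library (-1.93 ± 0.51 (SE), adjusted p = 0.0269). Without replicate 1 of day 0 that change was -1.22 (adjusted p = 0.212), and without any 1 library of day 6 the adjusted p was 0.0725 to 0.111.

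Lcn2 (ENSMUSG00000026822, chr2:32384633-32388252), lipocalin 2, keeps iron from bacteria by binding their siderophores. Untreated resident libraries had 3, 6 and 1 counts, that is 0.193, 0.459 and 0.0629 CPM. On day 3 Lcn2 had 970.1, 1546 and 1209 CPM in recruited libraries, against 582, 1139.5 and 1645 CPM in resident ones. The populations overlapped on day 3, all 6 libraries were far above the untreated ones, and the difference between them did not pass the test (0.15, adjusted p = 0.877). On day 6 it had 23.5, 26.2 and 21.9 CPM in recruited libraries, against 24.1, 11.3 and 33 CPM in resident ones, and on day 12 1.17, 1.19 and 6.22 CPM in recruited libraries, against 4.07, 1.76 and 1.79 CPM in resident ones. On day 9 it had 0.846, 5.17 and 4.19 CPM in recruited libraries, against 0.819, 16.8 and 4.7 CPM in resident ones. The populations overlapped on each day.

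In resident cells Lcn2 was higher than on day 0 on day 3 (12.23 ± 1.18 (SE), adjusted p = 4.08e-07), day 6 (6.60 ± 1.12 (SE), adjusted p = 0.00127) and day 9 (4.98 ± 1.18 (SE), adjusted p = 0.0223). Because the day 0 level rests on 10 counts, leaving out its replicate 2 gave 13.01, 7.39 and 5.77. The day 9 call was lost without any 1 library of day 0 (adjusted p = 0.0543 to 0.11) or without replicate 2 of day 9 (3.57, adjusted p = 0.137). In recruited cells it was lower on day 12 than on day 3 (-8.70 ± 0.95 (SE), adjusted p = 5.03e-07; -10.03 without replicate 3 of day 12). Neutrophils are a known source of lipocalin, and the summed CPM of 13 neutrophil markers was 527 to 1091 in recruited cells of day 3 (10 to 12 with a count, Elane at 0), 231 to 274 in resident cells of day 3 (10 or 11 with a count, Mpo and Elane at 0) and 117 to 140 in untreated cells (5 to 8 with a count; Ly6g, Camp, Mpo and Elane at 0). The part of neutrophil RNA in the Lcn2 level was not tested.

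Hfe (ENSMUSG00000006611, chr13:23702034-23710854), a relative of the MHC class I proteins that binds the transferrin receptor, was called in 1 comparison. Its level ran from 17.5 to 87.6 CPM over all 27 libraries. It had 30.4, 87.6 and 40 CPM in recruited libraries of day 9, against 21.8, 17.5 and 38.6 CPM on day 3. The groups overlapped, and replicate 2 of day 9 was the highest of all 27 libraries. The change was called (1.01 ± 0.37 (SE), adjusted p = 0.0351), but not without that library (0.45, adjusted p = 0.32) or without replicate 1 or 2 of day 3 (adjusted p = 0.109 and 0.15). With blocks for the replicate number, Hfe was also higher in recruited than in resident cells on day 9 (0.52, adjusted p = 0.0341). Without the block that difference was 0.60, adjusted p = 0.226, and it was 0.01 (adjusted p = 0.982) without recruited replicate 2. With the blocks the Hfe changes in recruited cells from day 3 to days 6 and 12 had adjusted p = 0.0103 and 0.0031. The blocks pair nothing across days, so these p-values can be too small and show no rise by themselves. Without the block neither change was called (adjusted p = 0.178 and 0.111). The day 12 change was then 0.75, or 0.55 (adjusted p = 0.309) without replicate 1 of day 12.

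Compared per kilobase of transcript, the order of the genes differed between groups. In untreated resident cells it was Fth1 (9539.9 CPM per kilobase), Ftl1 (6858), Hmox1 (758), Slc11a1 (44.0), Slc40a1 (13.4), Hfe (8.48), Tfrc (5.19), Lcn2 (0.26) and Cp (0.11). In recruited cells of day 3 Lcn2 (1357 CPM per kilobase) came next after Fth1 and Ftl1, and Slc40a1 (0.96) was the lowest, with Slc11a1 at 372. In resident cells of day 12 Slc40a1 (6.97 CPM per kilobase) was just below Hfe, and in recruited cells of that day it was at 0.78, above Cp (0.62) only. Neighbours in these orders were not tested against each other.

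Across the 9 group means of log2 CPM, the pattern of Lcn2 was most like that of the complement genes Cfb (Pearson r = 0.990) and C3 (0.984), and that of Cp like Tnip3 (0.986), among 7934 genes. Fth1 was closest to Cstb (0.991) and Clec4e (0.987), and Slc11a1 to Mafg (0.994). Hmox1 was closest to Isca2 and Blvrb (0.941 each), Slc40a1 to Med17 (0.984), Tfrc to Cep295 (0.967), Hfe to Lman2l (0.986) and Ftl1 to Chtop (0.935). Among the members themselves, Fth1 and Cp (r = 0.878) and Lcn2 and Cp (0.829) were most alike, and Hmox1 and Hfe (-0.80) and Slc40a1 and Cp (-0.782) most opposed. These are descriptions over 9 points that share libraries, and Lcn2, Cp and Fth1 have a day 3 peak in both populations.

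The wider pathway was 9 lists with 87 further genes in the table, and the 9 genes above count in their own lists. Of the 72 tested genes beside them, 20 were higher and 21 lower in recruited than in resident cells in the average over days, beside 60.3% of all genes called. Iron entry and release had more genes higher than lower in recruited cells (4 higher and 1 lower of 9, median 0.35 beside 0.02 over all genes), as did storage and chaperones (5 higher and 1 lower of 9, median 0.26). Haem synthesis had more lower (0 higher and 6 lower of 9, median -0.30), beside 4078 of all 13599 genes lower. By day, 5 of the 9 were lower on day 3, 3 on day 6, 1 on day 9 and 1 on day 12. Of all genes, 3193, 2550, 2236 and 1997 were lower on those days. Haem uptake, breakdown and export was split (3 higher, 3 lower of 12), as was iron-sulphur cluster assembly (4 higher, 5 lower of 15). The remaining lists had 4 higher and 1 lower of 7 for iron sensing, 1 and 2 of 5 for secreted iron binders, 1 and 1 of 3 for export, and 2 and 2 of 12 for targets and regulators of Nrf2 and Bach1, the factors that switch Hmox1 on and off. Without recruited replicate 2 of day 9 (60.2% of all genes called) the last list had 2 higher and 4 lower. Haem synthesis then kept its counts of 0 and 6, and the median of the entry list was 0.18. Without replicate 1 of day 12 the median of the entry list was 0.22.

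**Figure D5:**
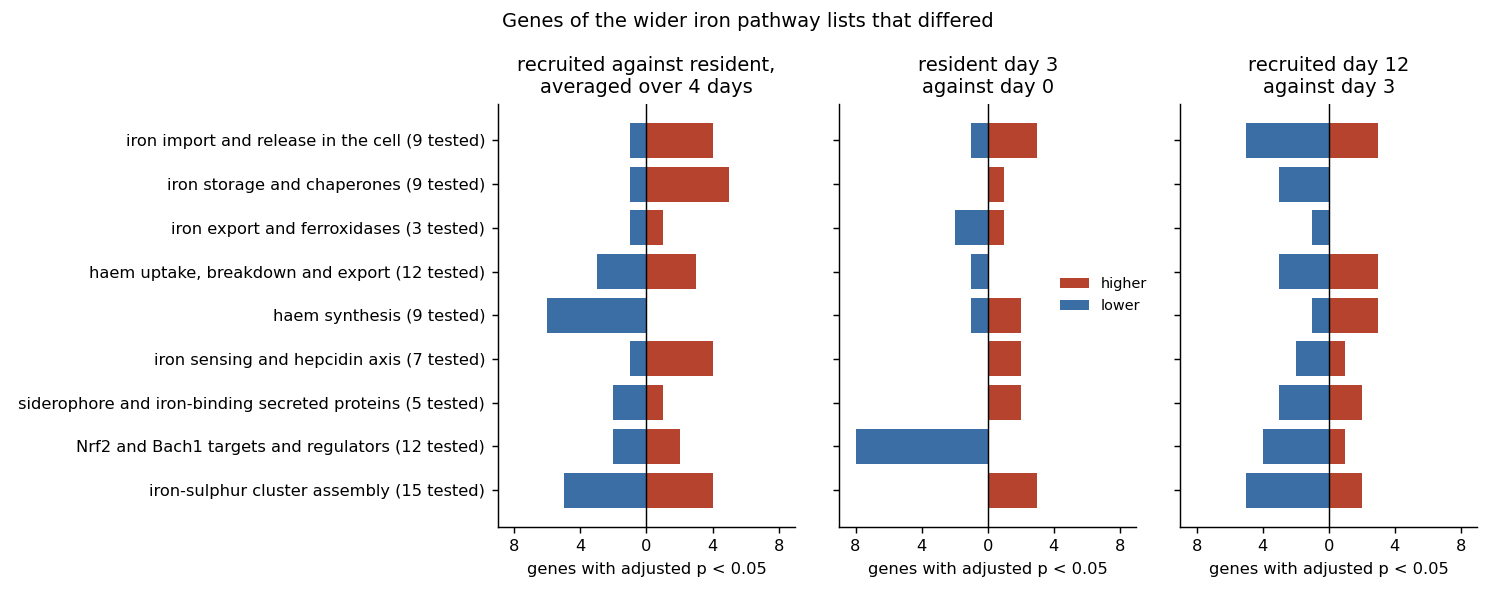
Number of genes in each list (rows, with the number tested) that were higher (red, to the right) or lower (blue, to the left) at an adjusted p under 0.05, in 3 comparisons. Haem synthesis has 6 lower and 0 higher in recruited cells in the average over days. The Nrf2 and Bach1 list has 8 lower and 0 higher in resident cells on day 3 (23.8% of all genes called in either direction). Without replicate 1 of day 0 it has 3 lower (20.5% of all genes called).

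Genes that set recruited from resident cells apart on all 4 days included both iron carriers and haem carriers. Slc11a2, the proton-coupled iron transporter DMT1, was higher in recruited cells (113 ± 17.6 CPM, against 54 ± 7.29 CPM in resident cells on day 3; average 1.24 ± 0.09 (SE), adjusted p = 4.14e-11), and so was Slc25a37, the mitochondrial iron importer mitoferrin 1 (536 ± 32.9 CPM, against 146 ± 22.6 CPM; 1.87 ± 0.09 (SE), adjusted p = 2.42e-14). Ncoa4, which carries ferritin to its breakdown in lysosomes, was lower (37.6 ± 2.16 CPM, against 118 ± 14.8 CPM; -1.16 ± 0.11 (SE), adjusted p = 5.88e-09). Trf, which encodes transferrin, was lower (-2.29 ± 0.15 (SE), adjusted p = 1.43e-11), and its difference narrowed from day 3 to day 12 (2.91 ± 0.42 (SE), adjusted p = 0.000106): 185 ± 78.3 CPM in recruited and 449 ± 21.5 CPM in resident cells on day 12, against 17 ± 8.5 CPM in recruited and 311 ± 25.7 CPM in resident cells on day 3 (SD, n = 3 each). Recruited libraries of day 12 had 95.6, 219.9 and 240.2 CPM of Trf and resident marker sums of 3038, 10554 and 9987 CPM, against sums of 2686 to 3812 CPM on day 3. Without replicate 1 of day 12 the narrowing was 3.26 (adjusted p = 1.41e-05), and the part of resident cells in it was not tested.

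Further genes apart on each day were Flvcr2 (-3.57), a relative of the haem exporter Flvcr1, Flvcr1 itself (1.31), Blvra, which reduces biliverdin (-1.16), Slc22a17, known as a receptor of lipocalin 2 (-3.91), and Aco1, which encodes iron regulatory protein 1 (-0.74). Each value is the average log2 difference, and the adjusted p lay between 4.32e-14 (Slc22a17) and 1.23e-08 (Flvcr1). Pcbp3, an RNA binding protein of the iron chaperone family (3.03), had at most 1.66 CPM in any group mean. Of the cluster assembly genes, Lyrm4 (-1.35), Iba57 (-0.54) and Nfs1 (-0.42) were lower and the scaffold Iscu (0.38) higher; their adjusted p lay between 2.58e-09 (Lyrm4) and 9.68e-07 (Iscu), and Iba57 and Iscu were not called on every day.

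In haem synthesis, Alas1, the first enzyme of the pathway, was lower in recruited than in resident cells in the average over days (432 ± 20.5 CPM in recruited and 645 ± 102 CPM in resident cells on day 3, SD, n = 3 each; -0.69 ± 0.12 (SE), adjusted p = 3.43e-05). Alad, a cytosolic enzyme of the pathway, was higher in resident cells on day 3 than on day 0 (0.86, adjusted p = 0.00123). Cpox, a later enzyme, was higher in recruited cells on day 12 than on day 3 (0.82, adjusted p = 0.000297). Of the cluster assembly genes, Isca1 (0.57, adjusted p = 0.000847) and Glrx5 (0.53, adjusted p = 0.0141) were higher in resident cells on day 3 than on day 0, and Ciapin1 was lower in recruited cells on day 12 than on day 3 (-0.87, adjusted p = 2.29e-05).

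In resident cells on day 3, 8 of 12 Nrf2 and Bach1 genes were lower than on day 0 and none higher (median -0.80 beside 0.00 over all genes), with 6 lower on day 6 and 5 on day 9. Of all 13599 genes, 1430 were lower on day 3, 360 on day 6 and 255 on day 9, out of 23.8%, 6.42% and 3.49% called in either direction. Nqo1, a classic Nrf2 target, had 1.77, 0.75 and 1.18 CPM on day 3 and 24.1, 6.82 and 8.74 CPM on day 0 (-3.40 ± 0.60 (SE), adjusted p = 0.000306). Bach1, the haem-sensitive repressor of Hmox1, was lower too (137, 150.4 and 115 CPM on day 3, against 242, 214 and 218 CPM on day 0; -0.75 ± 0.11 (SE), adjusted p = 6.38e-05). Replicate 1 of day 0 was again the highest, at 479 CPM of Slc7a11 and 254 CPM of Blvrb, against 139 to 164 CPM and 85.5 to 96.3 CPM in the other untreated libraries. Without it 3, 2 and 1 of the 12 genes were lower on days 3, 6 and 9. Beside them, 20.5%, 3.24% and 1.2% of all genes were called in either direction. Nqo1 (adjusted p = 0.00309) and Bach1 (adjusted p = 0.000576) kept their day 3 calls without that library. Srxn1 did not (-1.50, adjusted p = 0.0208, and 0.182 without that library).

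Other genes that changed in resident cells by day 3 were Hp, which encodes the haemoglobin binder haptoglobin (739 ± 325 CPM on day 3, against 4.1 ± 2.53 CPM on day 0; 7.49 ± 1.45 (SE), adjusted p = 0.000939), Steap4, a metalloreductase (4.25 ± 0.85 (SE), adjusted p = 0.000985), Steap3 (1.34, adjusted p = 0.0409), and Fbxl5, which senses iron and marks iron regulatory protein 2 for decay (355 ± 108 CPM on day 3, against 163 ± 10.2 CPM on day 0; 1.13 ± 0.30 (SE), adjusted p = 0.00849). Slc25a37 (2.02) and Slc11a2 (1.01) were higher on day 3 in resident cells as well, with adjusted p = 2.19e-08 and 0.000326. The monocyte marker sum was 430 to 695 CPM in resident libraries of day 3, against 48.9 to 57.2 CPM on day 0, and its part in these changes was not tested. In recruited cells, Hp (-3.39), Slc7a11 (-2.50), Slc25a37 (-1.96) and Fbxl5 (-1.81) were lower on day 12 than on day 3, while Slc39a8, a transporter of zinc and other metals, was higher (1.70); their adjusted p lay between 8.49e-09 (Slc25a37) and 0.0264 (Hp). Without replicate 1 of day 0 the day 3 change of Hp was 8.12 and the call of Steap3 was lost (adjusted p = 0.0555). Leaving out replicate 1 of recruited day 12, the change of Hp was -4.77 and the call of Slc39a8 was lost (adjusted p = 0.0877).

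Ireb2, which encodes iron regulatory protein 2, averaged 0.16, adjusted p = 0.025 (0.0539 without recruited replicate 2 of day 9), and Hmox2, the constitutive haem oxygenase, ran from 74.9 to 94.3 CPM in group means and was called in no comparison. Slc48a1, which takes haem out of phagolysosomes, had 203 to 310.4 CPM and was called in none either. Nfe2l2, which encodes Nrf2, was higher in recruited cells on day 3 (0.69, adjusted p = 8.14e-05), and Cd163, the haemoglobin scavenger receptor, stayed at or under 1.85 CPM in every group mean. Hamp, which encodes hepcidin, did not pass the filter on low counts. Pcbp1, an iron chaperone for ferritin, was slightly lower in recruited cells (-0.15, adjusted p = 0.00464).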

How the data were processed

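Messenger RNA of sorted macrophages was sequenced with a stranded kit on an Ion Proton instrument, per the labels. The authors deposited whole read counts per gene, and per the submitters' processing notes the tools were STAR 2.4.0a, HTSeq 0.6.0, DESeq2 1.4.5 and R 3.1.0 with the build mm10. Not given in the sources used here are the annotation release and the counting's strand setting. All library columns were used.

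Here edgeR 4.0.16 (R 4.3.3) was run on the deposited counts of all 27 libraries, with 1 mean per group, TMM factors, quasi-likelihood tests on 18 residual degrees of freedom and Benjamini-Hochberg adjustment over all genes. filterByExpr (minimum count 10, minimum total 15) left 13599 genes. A prior count of 2 was used for the log2 CPM behind the likeness of patterns and the deviations of libraries. Fold changes came from the quasi-likelihood fit with its default prior. DESeq2 1.42.0 was an alternative. One count was worth 0.0498 to 0.0928 CPM, and totals ran from 11093216 to 18299674. No exact permutation test is given, since 0.1 is the smallest p it allows for groups of 3.

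Members and lists were chosen with earlier results of these data known. Beside the 9 genes, the text names, by size of change, up to 4 genes per list called in the average over days and apart on each day, up to 2 called on resident day 3 or recruited day 12 with groups apart, and a fixed set of regulators. The likeness of patterns used genes that reached 20 CPM as the mean of 1 group. Ahsp, Fam132b and Hjv had no row. One gene that this rule would name is not reported here. The scripts were tested on simulated data. Libraries of equal day and replicate number deviated together (r = 0.166 to 0.518 over 12 pairs), so the replicate block takes the numbers as pairing them. That pairing comes from the data, since the labels give only the numbers. The main tests did not use it.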

Additional observations from a re-analysis of the deposited data

Results flagged for a closer look

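A test of the change with the day of the difference between recruited and resident cells called 3 of the 9 genes, and some of these calls did not hold under other settings. For Slc40a1 the change over days 3, 6, 9 and 12 had an adjusted p of 0.0263 and the difference on day 12 minus that on day 3 an adjusted p of 0.0116 (edgeR's quasi-likelihood test). For Cp the corresponding values were 0.00785 and 0.0400. For Hmox1 the day 12 minus day 3 value was 0.0499, and its change over all 4 days was not called (adjusted p = 0.197). The Hmox1 call was lost with blocks for the replicate number (adjusted p = 0.0518), with no count filter (0.108) and without any 1 of the 12 libraries (0.0512 to 0.113). The day 12 minus day 3 call of Cp was lost with no count filter (0.0734), with only the groups compared (0.126) and without any 1 of 9 of the 12 libraries (0.0574 to 0.115). Slc40a1 had log2 differences of -0.33 on day 3 and -3.13 on day 12, Cp of 0.30 and 2.37, and Hmox1 of 1.18 and -0.95.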

How the results depend on the processing

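The count of iron genes called did not change by more than 1.5 times in the average over days or in any single-day comparison of the populations under the settings other than leaving out a library. The resident day 3 count of 3 was 5 with the replicate block and 5 with runs of the library numbers as a covariate. With no count filter it was 3 on resident day 6, 1 on day 9 and 0 on day 12, 3 on recruited day 9, 1 for the change over all days and 1 for day 12 minus day 3. With only the groups compared it was 3 on resident day 6, 1 on day 9, 2 on day 12 and 3 on recruited day 9. With library number runs it was 2 on resident day 12, and DESeq2 gave 4 on resident day 9 and 2 on day 12. The cause was not tested. Leaving out 1 library gave 3 to 5 genes for the populations on day 6 and 3 to 4 on day 9, 3 to 4, 2 to 5, 0 to 2 and 0 on resident days 3, 6, 9 and 12, 3 to 4, 3 to 6 and 5 to 7 on recruited days 6, 9 and 12, 1 to 3 for the change over all days and 1 to 2 for day 12 minus day 3. The next counts cover the single-gene changes called in some setting or chosen for print, without the test over all 4 days, which has no direction. Of these, 496 values kept their direction and side of the threshold, 24 gained a call and 18 lost one. With 1 library left out these were 564, 4 and 61. The sign turned for changes not called with all libraries: Ftl1 on recruited day 12 was -0.15 with library number runs. Without 1 library each, the ranges were -0.21 to 0.24 for that change, -0.17 to 0.53 for Lcn2 and -0.25 to 0.60 for Cp between the populations on day 3, -0.52 to 0.17 for Lcn2 in the average over days and -1.31 to 0.13 for Tfrc on recruited day 9, where -1.31 is the value without replicate 2 and is called (adjusted p = 0.000591). The replicate block pairs libraries of equal day and number. It ended the day 12 minus day 3 call of Hmox1 (adjusted p = 0.0518) and no other call. It added the calls of Hfe, Fth1 and Ftl1 given above. Its p-values for changes between days can be too small, as it pairs nothing across days and gives day 0 no block. Over all genes, the block called 1645 in place of 873 on resident day 6, 1038 in place of 474 on day 9, 519 in place of 177 on day 12, 2369 in place of 1449 for the change over all days and 2837 in place of 1853 for day 12 minus day 3; library number runs gave 1586, 1076, 379, 2483 and 2818. With only the groups compared, 2497 in place of 4351 were called between the populations on day 9, 1446 on resident day 6, 122 on resident day 9 and 2772 in place of 4933 on recruited day 9, and DESeq2 called 813 on resident day 9 and 398 on day 12. Leaving out 1 library gave 1897 to 2851 in place of 3232 on resident day 3, 450 to 605 on day 6, 167 to 405 on day 9, 75 to 144 on day 12 and 897 to 1679 for the change over all days. Depth limits Lcn2 in untreated cells and Cp in resident cells of days 0, 6, 9 and 12 most.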
